A study of Mus musculus with 13 samples.

Results

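Haematopoietic stem cells (HSCs) that gave restricted blood reconstitution after transplantation were compared, as 1 pooled class, with HSCs that gave multilineage reconstitution. The pooled class holds 9 of the 13 libraries of the series: every library labelled PLT-HSC (3) and every library labelled PEM-HSC (6). The remaining 4 libraries, labelled MUL-HSC, are the comparison class, and all genes of the count table except the ERCC spike-in rows were used. Each library was assigned by its label, and no measured value decided which libraries belong to the class.

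In the study a single Vwf-expressing HSC from mouse bone marrow was transplanted into each primary recipient, and the blood that it made was followed for 16 weeks. PLT-HSC libraries come from recipients with P-restricted reconstitution, PEM-HSC libraries from recipients with PEM-restricted reconstitution, and MUL-HSC libraries from recipients with multilineage reconstitution. All 3 groups share the same strain (C57BL/6), tissue and sort: donor cells carrying CD45.2, within the lineage-negative, Sca1-positive, Kit-positive (LSK) gate, negative for Flt3, CD48 and Gata1 and positive for CD150. Each library was made by a Smart-seq+ protocol from polyadenylated RNA of 100 such cells. The labels give no age, sex or conditioning of the recipients, and the labels do not say whether libraries of a group come from separate recipients. P-values therefore measure only how far these libraries vary, and part of that variation may be technical. The sort of the recovered cells, as labelled, did not select on Vwf.

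HSCs sit at the top of the blood hierarchy, and single-cell transplantation shows that individual HSCs differ in the lineages they replenish. The gene Vwf, for von Willebrand factor, makes a protein that tethers platelets to injured vessels; among HSCs it is transcribed in a subset known for a bias towards platelets. In adult mouse marrow, long-term HSCs carry little CD34 on their surface, while multipotent progenitors, the next step of differentiation, carry more.

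The main test called 6 genes between the pooled restricted class and the multilineage class. Vwf (von Willebrand factor), Rdh10 (a dehydrogenase that turns retinol into retinaldehyde on the way to retinoic acid), Phf11d (a PHD finger protein of an interferon-inducible family) and Gpr4 (a proton-sensing receptor) were higher in restricted HSCs. Cd34 (a surface sialomucin of progenitors) and Ctla2a (an inhibitor of cysteine proteases) were lower. These 6 genes are 0.0495% of the 12131 genes tested, at an adjusted p under 0.05 in edgeR's quasi-likelihood test with Benjamini-Hochberg adjustment. The 4 higher genes are 0.033% and the 2 lower genes 0.0165% of all genes tested. At an unadjusted p under 0.05 there were 762 genes (6.28%), 494 higher and 268 lower. The count depended on the tool and on the libraries: DESeq2 called 131 genes higher and 15 lower, limma voom 0 and 3, and edgeR without MUL-HSC 3 called 19 and 3.

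Promoter sequence is shown for 2 of the called genes, 1 from each direction, to give the regulatory context beside the values that follow. Each stretch is the 250 bases upstream of the RefSeq transcription start on the gene's own strand, in build GRCm38.p6; the counts were made on the older build mm9, and no coordinate was carried between the 2 builds. Capitals mark matches to the ETS-type motif AGGAAG (written CTTCCT on the other strand) or to the KLF-type motif CACCC, and the GATA-type motif GATAA was searched as well, each on both strands.
Cd34 (chr1:194938571-194938820, plus strand, upstream of the first exon): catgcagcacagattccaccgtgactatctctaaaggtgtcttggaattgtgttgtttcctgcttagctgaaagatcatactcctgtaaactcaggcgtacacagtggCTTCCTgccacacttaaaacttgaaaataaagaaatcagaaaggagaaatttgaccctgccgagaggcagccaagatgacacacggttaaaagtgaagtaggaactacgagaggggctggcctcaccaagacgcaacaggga
Phf11d (chr14:59365491-59365740, minus strand, upstream of the first exon): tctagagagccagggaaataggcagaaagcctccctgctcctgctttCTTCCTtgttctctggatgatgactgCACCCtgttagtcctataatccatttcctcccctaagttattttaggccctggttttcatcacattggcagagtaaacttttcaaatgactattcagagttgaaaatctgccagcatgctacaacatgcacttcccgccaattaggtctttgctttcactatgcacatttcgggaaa
The Cd34 stretch held 1 match, CTTCCT, beginning 142 bases upstream of the start, and no GATAA or CACCC. The Phf11d stretch held CTTCCT at 203 and CACCC at 177 bases upstream, and no GATAA. In the same 250 bases upstream of 32851 RefSeq transcription starts, AGGAAG was found in 29.5%, CACCC in 52% and GATAA in 22.6%, so such matches are common and do not show that a factor binds. Of the 4 genes for which a sequence was sought, Vwf, Cd34, Rdh10 and Phf11d, these 2 had an entry in the table.

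Library size and the number of detected genes overlapped between the classes. Gene counts per library ran from 22913695 to 32437607 in the restricted class and from 16371921 to 41367057 in MUL-HSC, and 11676 to 12310 against 11233 to 12182 genes had a count. Over these 2 measures and the spike-in share, 3 two-sided exact permutation tests over 715 assignments gave p of 0.891, 0.158 and 0.905 in that order (adjusted 0.905, 0.474 and 0.905); the smallest p these assignments allow is 0.0014. Libraries of 1 class were hardly more alike than libraries of different classes, with a median Spearman correlation across genes of 0.881 within restricted, 0.885 within MUL-HSC and 0.874 between them. MUL-HSC 1 and MUL-HSC 2 stood apart: on the first principal component of the 500 most variable genes (18.2% of the variance) they lay at -53.7 and -58.1, while MUL-HSC 4 lay at -27.7, MUL-HSC 3 at 5.83 and the 9 restricted libraries between -16.3 and 49.9. On the second component (11.3% of the variance) MUL-HSC 3 lay highest, at 47.4, with the other libraries between -37.1 and 33.5. Because of their place on the first component, the called genes and most gene lists are also given without MUL-HSC 1 and 2. The HSC markers Kit, Procr, Slamf1 and Ly6a had reads in all 13 libraries, at means of 361, 212, 216 and 777 CPM (counts per megaread of library size, the library sizes being scaled by TMM) in the restricted class and 313, 195, 89.3 and 483 CPM in MUL-HSC; none of these differences passed the test. Because each library is bulk RNA of sorted cells, fewer cells of a kind and less RNA per cell cannot be told apart.

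Vwf stood first. Its level in the restricted libraries ran from 32.2 CPM in PEM-HSC 6 through a median of 102 to 185 CPM in PLT-HSC 3, and the MUL-HSC libraries read 5.01, 9.65, 13.4 and 12.4 CPM. All 9 restricted libraries lay above all 4 multilineage ones. Genes with no overlap of this kind, restricted above MUL-HSC, are 0.396% of the genes tested (48 genes), and those with restricted below are 0.264% (32 genes). The class means were 96.8 ± 44.1 CPM (SD, n = 9) and 10.1 ± 3.76 CPM (SD, n = 4), a 9.57-fold difference, with a log2 fold change of 3.26 (SE 0.44, adjusted p = 0.0128, edgeR). Every recipient had started from a Vwf-expressing cell, so the difference lies among the descendants of such cells.

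Cd34 was low across the restricted class. Its lowest restricted value was 21.4 CPM (PEM-HSC 3), the median 40.6 and the highest 105 CPM (PEM-HSC 4), against 566, 460.45, 91.1 and 369 CPM in MUL-HSC 1 to 4. The classes overlapped at 1 point, since PEM-HSC 4 and PEM-HSC 6 (94.8 CPM) lay just above MUL-HSC 3, whose Cd34 was far below that of the other 3 multilineage libraries. The means were 49.2 ± 31.3 and 372 ± 204 CPM (SD, n = 9 and 4), and the log2 fold change was -2.92 (SE 0.44, adjusted p = 0.0221, edgeR).

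Rdh10 varied widely within the restricted class. Restricted libraries ran from 8.95 CPM (PEM-HSC 3) through a median of 53.4 to 189 CPM (PLT-HSC 1), and MUL-HSC libraries held 2.30, 1.38, 0.43 and 4.49 CPM. There was no overlap, and the restricted mean of 74.7 ± 56.9 CPM stood against 2.15 ± 1.74 CPM (SD, n = 9 and 4), for a log2 fold change of 5.09 (SE 0.84, adjusted p = 0.0392, edgeR). Phf11d differed by less but varied less among libraries: 131 CPM at the lowest (PEM-HSC 3), 183 at the median and 379 at the highest (PLT-HSC 2) in restricted HSCs, and 67.6, 39.8, 84.8 and 55.9 CPM in MUL-HSC. Its classes did not overlap either, and its log2 fold change was 1.79 (SE 0.30, adjusted p = 0.0392, edgeR). Phf11d belongs to a family of near-identical copies, so its counts are uncertain where reads were shared among them.

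Gpr4 was read in 8 of the 9 restricted libraries, at 10.8 to 40.4 CPM, and had no read in PEM-HSC 2 or in any MUL-HSC library. Against a floor of 3 counts over the whole MUL-HSC group, its restricted mean of 21.1 CPM was at least 744-fold higher by the counting of reads alone (adjusted p = 0.0482, edgeR). Since a library at 0 also occurred among the restricted ones, absence of Gpr4 reads did not by itself mark a multilineage library. Ctla2a, the most abundant of the called genes, read 1345, 3898, 1007 and 1149.7 CPM in MUL-HSC 1 to 4 and between 80.4 CPM (PLT-HSC 2) and 503 CPM (PEM-HSC 4), median 266, in the restricted class. All restricted libraries lay below all multilineage ones, MUL-HSC 2 stood far above the other 3, and the log2 fold change was -2.64 (SE 0.45, adjusted p = 0.0482, edgeR). Ctla2a has a close copy, Ctla2b, with which reads may be shared.

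**Figure D1:**
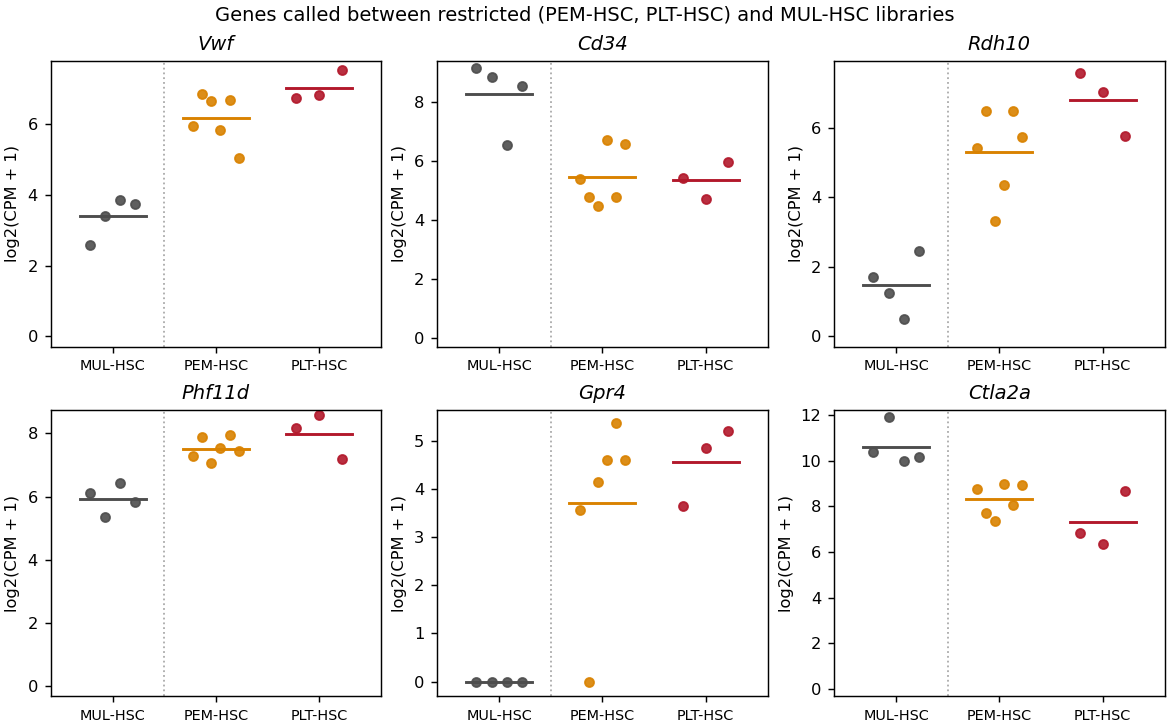
Level of the 6 called genes in each of the 13 libraries, as log2(CPM + 1) on the vertical axis, by group on the horizontal axis (points, libraries; bars, group means; the dotted line divides MUL-HSC from the restricted groups). Vwf, Rdh10, Phf11d and Ctla2a show no overlap between MUL-HSC and restricted libraries, Cd34 overlaps at MUL-HSC 3, and Gpr4 is at 0 in all 4 MUL-HSC libraries and in PEM-HSC 2.

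How far these calls rest on single libraries differed by gene. Vwf stayed called when any 1 of the 13 libraries was left out, with adjusted p of 0.0446 at most. Cd34 stayed called in 9 of the 13 such fits and missed the threshold without MUL-HSC 1 (adjusted p = 0.105), MUL-HSC 2 (0.0532), PEM-HSC 5 (0.0646) or PLT-HSC 1 (0.0514). Rdh10 stayed called in 5 of 13, missing it without MUL-HSC 1 or 2, PEM-HSC 2, 5 or 6, or any PLT-HSC library (0.0514 to 0.162). Phf11d stayed called in 6 of 13, missing it without MUL-HSC 1, 2 or 4, PEM-HSC 2, 5 or 6, or PLT-HSC 1 (0.0554 to 0.176). Gpr4 stayed called only without MUL-HSC 3 or PEM-HSC 2 and otherwise reached up to 0.162, and Ctla2a only without MUL-HSC 3, PEM-HSC 4 or PLT-HSC 2 and otherwise reached up to 0.191. Without both MUL-HSC 1 and 2 none of the 6 was called: Vwf had a log2 fold change of 2.91 (adjusted p = 0.248), Cd34, Rdh10, Phf11d and Ctla2a had -2.21, 4.90, 1.62 and -1.86 (each 0.646), and Gpr4 had an adjusted p of 0.55. The genes called in that smaller comparison were Hfe and Clec7a, an iron-regulating protein and a pattern-recognition lectin, both higher in the restricted libraries and named after their values were seen. With all 13 libraries Clec7a ran from 0 to 10.6 CPM in MUL-HSC, mean 2.64, and did not pass (adjusted p = 0.557, edgeR). It was also called when MUL-HSC 2 alone was left out (adjusted p = 0.000252, edgeR). Its log2 fold change was 3.82 with all 13 libraries and 12.985 in that fit. MUL-HSC 2 held all of its multilineage reads, so both calls compare the restricted libraries with a group without Clec7a reads. The second call therefore adds no independent evidence. The sign of each of the 6 genes was the same in all 24 alternative fits. Those fits reuse the libraries in which the genes were chosen by p, so the kept sign is not independent evidence.

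**Figure D2:**
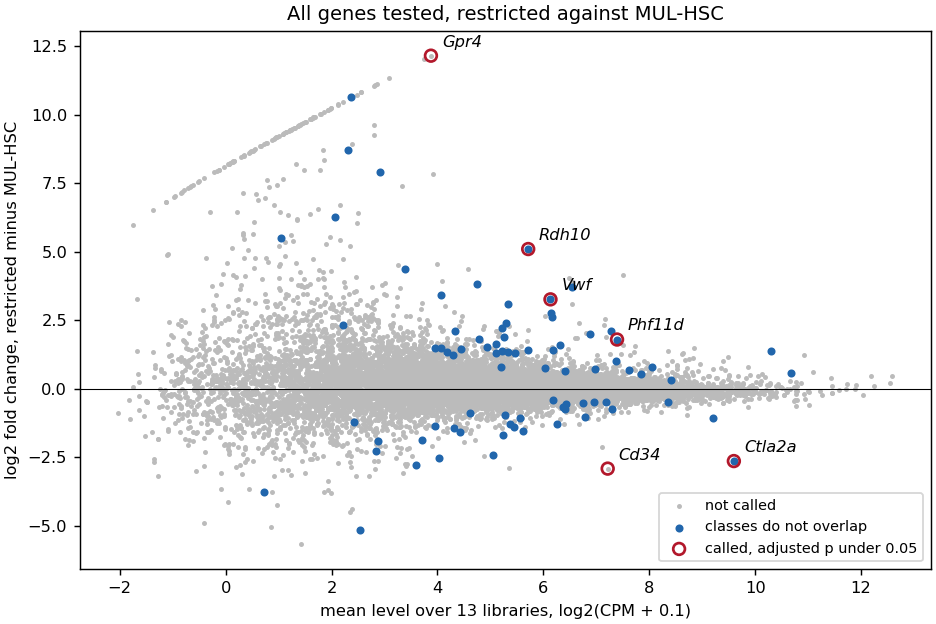
Log2 fold change, restricted minus MUL-HSC (vertical), against mean level over the 13 libraries as log2(CPM + 0.1) (horizontal), for each of the 12131 genes tested, with the 6 called genes named. The straight band of points at the upper left edge holds genes with no reads in any MUL-HSC library, whose fitted fold depends on the prior count.

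Below the threshold, the genes ranked next by p were these. Higher in restricted libraries were Gadd45g, a growth-arrest and DNA-damage response gene (96.3 ± 45.5 against 15.9 ± 11.3 CPM, SD, adjusted p = 0.0689), Nfkbia, the inhibitor that holds NF-kB in the cytoplasm (304 ± 50.6 against 174 ± 16.5 CPM, 0.0925), Erp27, an endoplasmic reticulum protein (153 ± 60.6 against 38.7 ± 21.2 CPM, 0.0925), and Apoe, a lipid carrier (1560.1 ± 595 against 599 ± 150.4 CPM, 0.0925). For each of these 4 genes all 9 restricted libraries lay above all 4 MUL-HSC libraries, where 0.396% of all genes tested did so. The genes were ranked by p in these same libraries, so their separation is not independent evidence. None of the 4 passed the test, and Nfkbia is an example of a small difference (log2 0.80, SE 0.16) with little spread between libraries.

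On the lower side the next ranks were Serpinb1a, an inhibitor of serine proteases of myeloid cells (67.3 ± 50.4 in restricted against 294 ± 130.4 CPM in MUL-HSC, adjusted p = 0.193), Ramp1, a subunit of the receptor for calcitonin gene-related peptide (440.1 ± 151 against 935 ± 215 CPM, 0.205), Akr1c13, an aldo-keto reductase (155 against 282 CPM, 0.208), Rfc2, a replication factor C subunit (326 against 634 CPM, 0.230), Fkbp3, an immunophilin (351 against 572 CPM, 0.230), and Cd37, a leukocyte tetraspanin (40.1 against 83.3 CPM, 0.279). Ramp1 did not overlap between classes, with 709 CPM as its lowest multilineage and 614 CPM as its highest restricted value. Serpinb1a did overlap, because PEM-HSC 4 (187 CPM) lay above MUL-HSC 4 (164 CPM). All 16 ranked genes, called or not, kept their sign in the 24 alternative fits, which reuse the libraries that ranked them and so give no independent evidence.

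**Figure D3:**
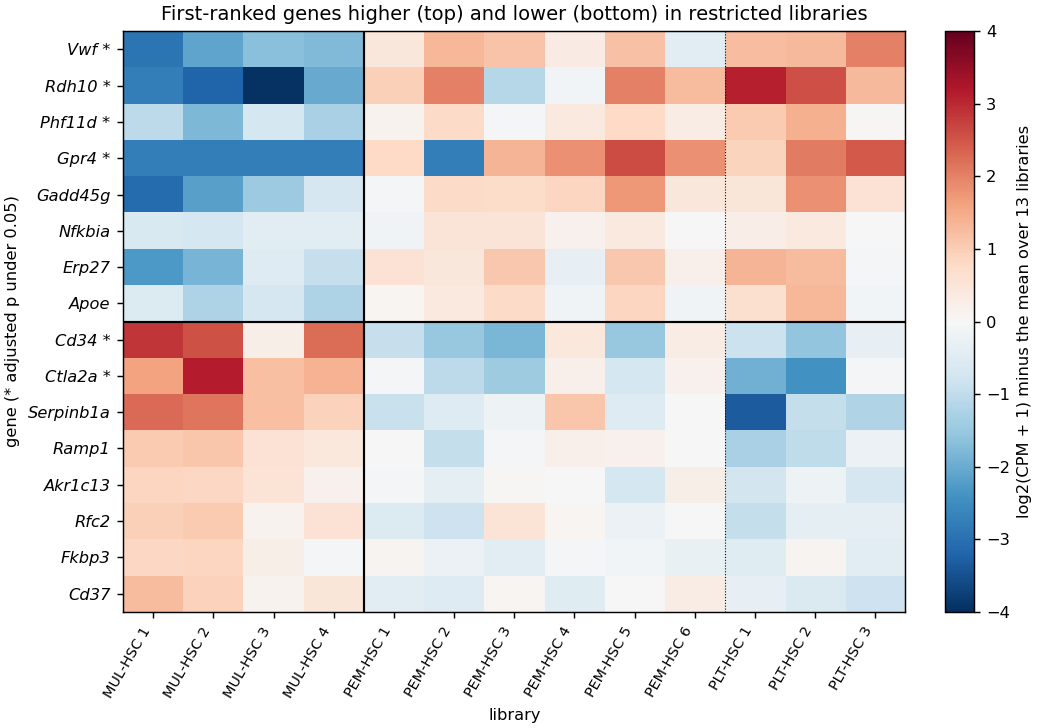
The 8 first-ranked genes higher (top block) and lower (bottom block) in restricted HSCs, by library on the horizontal axis. Colour is log2(CPM + 1) minus the gene's mean over the 13 libraries, and a star marks an adjusted p under 0.05; MUL-HSC 3 is the multilineage library nearest to the restricted ones for Cd34, Erp27 and Phf11d.

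Reads present in every library of 1 class and in none of the other were rare. Apol9a, an apolipoprotein L gene, had no read in any MUL-HSC library and reads in all 9 restricted ones, from 0.10 CPM (PEM-HSC 4) to 14.4 CPM (PLT-HSC 1) with a mean of 7.34. That is at least 259-fold above a floor of 3 counts over the MUL-HSC group by counting alone, its adjusted p was 0.119, and its close copy Apol9b may share its reads. Atp1b1, the beta subunit of the sodium pump, had no read in any restricted library and 0.28, 10.005, 4.28 and 5.78 CPM in MUL-HSC 1 to 4; it did not pass the filter on low counts and was not tested.

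Genes of the sort itself gave a check on the labels. Flt3, the receptor absent from the sorted surface, read 10.9, 40.2, 0.43 and 8.49 CPM in MUL-HSC 1 to 4, was at 0 in 5 of the 9 restricted libraries and reached at most 5.16 CPM there (PEM-HSC 4). Cd48 read 60.2, 23.4, 6.85 and 10.3 CPM in MUL-HSC and 0 to 16.0 CPM in restricted HSCs. Neither passed the test (adjusted p = 0.621 and 0.996, edgeR), and both were highest in MUL-HSC 1 or 2. Gata1, whose absence also defined the sort, had reads in both classes (0 to 23.1 CPM restricted, 6.18 to 28.2 CPM multilineage), and Slamf1, which encodes CD150, had a log2 fold change of 1.27 (SE 0.40, adjusted p = 0.423). The pan-leukocyte gene Ptprc, which encodes CD45, had nearly equal means of 280.4 and 277 CPM. Itga2b, the integrin CD41, averaged 7.50 and 8.57 CPM.

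Genes of multipotent progenitors were mostly lower in the restricted class. Of 27 tested members of a list of 30, 21 had a negative and 6 a positive log2 fold change, with a median of -0.88, whereas 6501 of all 12131 genes were positive and their median was 0.040. The called members were Cd34 and Ctla2a. At an unadjusted p under 0.05, 8 of the 27 members were lower and 0 higher, where 2.21% of all genes tested were lower and 4.07% higher. The list was drawn up with earlier results of these data known and includes genes that had stood out in them (Cd34, Ctla2a, Serpinb1a and Lpxn), so its direction is not independent evidence. Among the members that did not pass, Cd27, a co-receptor of the tumour necrosis factor receptor family, averaged 125 CPM in restricted and 232 CPM in MUL-HSC libraries. Lpxn, the adhesion adaptor leupaxin, was at 0 in all restricted libraries but PLT-HSC 1 (4.34 CPM) and read 20.9, 28.6, 9.36 and 10.5 CPM in MUL-HSC. The mean log2(CPM + 1) of the list ran from 4.36 to 5.13 in restricted and from 5.19 to 6.06 in multilineage libraries, without overlap, and the multilineage library nearest to the restricted ones was MUL-HSC 3. Without MUL-HSC 1 and 2 the median was -0.58, with 7 of 28 members positive and none called.

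Genes reported in the literature as higher in aged HSCs leaned the other way. Of 60 tested members 56 were positive, with a median log2 fold change of 1.25; the called member was Vwf. At an unadjusted p under 0.05, 28 of the 60 were higher and 0 lower, where 4.07% of all genes tested were higher and 2.21% lower. Like the other gene lists, this one was drawn up with earlier results of these data known, so its direction is not independent evidence. In 4 members, Vwf, Gstm2, Clec1a and Ramp2, all restricted libraries lay above all multilineage ones, where 0.396% of all genes tested did so. Gstm2, a glutathione S-transferase, averaged 204 and 48.0 CPM (log2 2.09, SE 0.48, adjusted p = 0.208), and Clec1a, a C-type lectin, 100.05 and 33.5 CPM (log2 1.58, SE 0.43, 0.338). Prcp, a lysosomal carboxypeptidase, averaged 157 and 67.4 CPM (0.178), and Ampd3, an AMP deaminase, 29.8 and 4.70 CPM (0.342). The mean log2(CPM + 1) of the list was 3.58, 4.16, 5.52 and 5.21 in MUL-HSC 1 to 4 and 5.48 to 6.61 in restricted libraries, so that MUL-HSC 3 lay above PEM-HSC 4, the lowest restricted library. MUL-HSC 1 and 2 were the lowest by over 1 unit, and without them the median was 0.95, with 47 of 62 members positive and none called.

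Genes of HSC identity were also mostly positive (48 of 57 tested, median 0.49), and none passed the test. Cdkn1c, the cell cycle inhibitor p57, read 46.0 CPM or more in every restricted library and 40.4 CPM or less in every MUL-HSC library (log2 1.42, SE 0.32, adjusted p = 0.205). Ctnnal1, an alpha-catulin marking HSCs, did not overlap either, with a lowest restricted value of 16.3 CPM and a highest multilineage value of 15.7 CPM (log2 2.21, SE 0.52, 0.225). Mllt3, a self-renewal regulator of HSCs, averaged 485 and 196 CPM (log2 1.31, SE 0.27, 0.123), with MUL-HSC 3 (310.4 CPM) just above the lowest restricted library (309 CPM). Mycn, Esam and Pdzk1ip1 had positive values of 1.38, 0.67 and 1.02 that did not pass. This list shares 10 genes with the aged-HSC list, and without MUL-HSC 1 and 2 its median was 0.35 (40 of 57 positive).

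**Figure D4:**
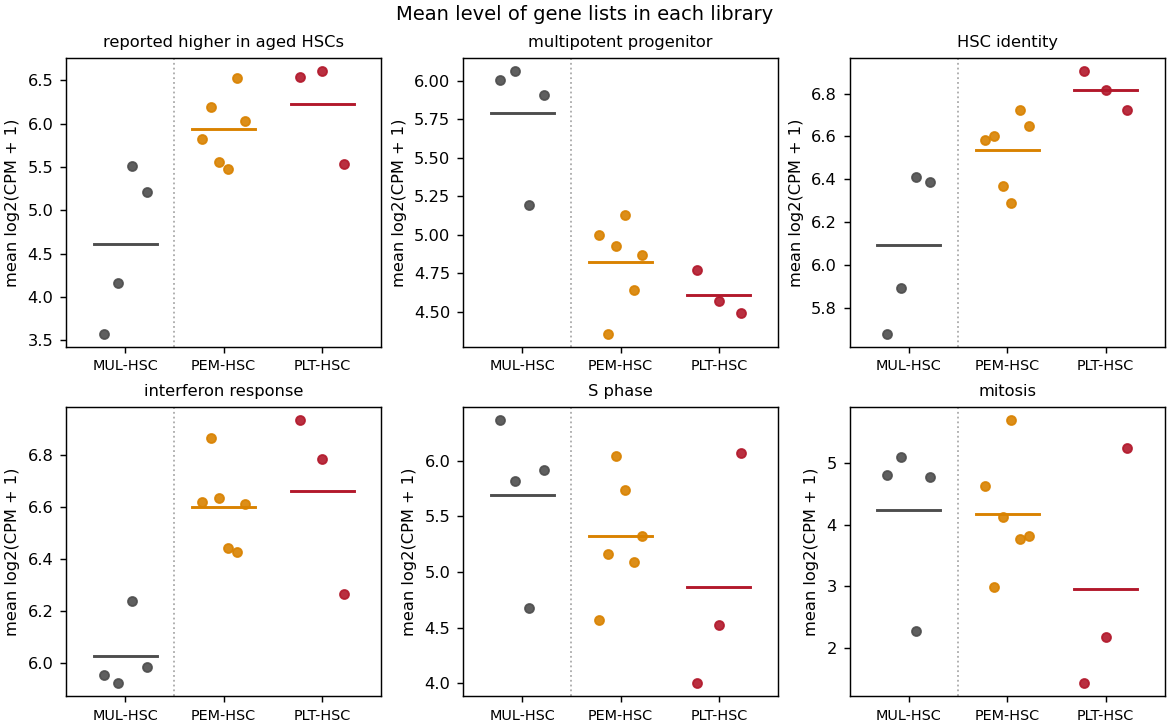
Mean log2(CPM + 1) of the members of 6 gene lists in each library (vertical), by group (horizontal); points are libraries and bars are group means. The multipotent progenitor and interferon lists show no overlap between MUL-HSC and restricted libraries, while S phase and mitosis lists overlap widely.

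Interferon response genes were positive in 51 of 57 tested members, with a median of 0.52, and Phf11d was the called one. Oas2, an antiviral oligoadenylate synthetase, was the other member without overlap between classes (26.1 and 6.11 CPM, adjusted p = 0.689). Over all genes tested, 0.396% showed no overlap in this direction. Chosen after their values were seen, Rsad2, an antiviral radical-SAM enzyme, averaged 59.5 and 20.1 CPM (adjusted p = 0.423), and Ifitm3, a membrane restriction factor, 2446 and 1610.3 CPM (0.621). The mean log2(CPM + 1) over the list was 6.27 to 6.94 in restricted and 5.93 to 6.24 in MUL-HSC libraries, without overlap. The summed level of the list did overlap, at 12247 to 26779 and 12920 to 16484 CPM. Without MUL-HSC 1 and 2 the median was 0.47, with 54 of 59 members positive and none called. MHC class II genes were positive in 12 of 14 members (median 0.51), none called: Cd74, the invariant chain, averaged 2359.5 and 1000.1 CPM with wide spread (444 to 4284 CPM restricted, 330 to 1462 CPM multilineage, adjusted p = 0.582), and H2-Ab1 744.5 and 442 CPM (0.444). The MHC class II median was 0.63 without MUL-HSC 1 and 2, with 12 of 15 positive. MHC genes have near-identical copies, so their counts are uncertain in the same way.

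Macrophage markers leaned the same way as these immune genes. Of 12 tested markers 10 were positive (median 1.87), none called, and the summed level of all 17 in the table was 125 to 465 CPM in restricted and 60.3 to 126 CPM in MUL-HSC libraries, so that the sums overlapped only at their edges. The mean log2(CPM + 1) of the tested markers, the measure given above for the interferon list, did not overlap between the classes. The gap was very narrow, with 2.512 to 4.215 in restricted and 1.487 to 2.505 in MUL-HSC libraries. Over the 24 alternative fits the median of these markers ran from 1.183 to 3.15. It was highest without MUL-HSC 1 and 2, with 13 of 14 markers positive. It was lowest with at least 10 CPM in at least 4 libraries, with 6 of 8 positive. With PLT-HSC and PEM-HSC weighted equally, 8 of 12 were positive, with a median of 1.201. With no filter on low counts, 15 of 17 macrophage markers were positive (median 1.92). In that fit 9 of 10 neutrophil markers (median 2.37) and 2 of 4 T and NK markers (median -0.23) were positive. The most abundant marker in restricted libraries was Cd68, a lysosomal glycoprotein, at 95.5 against 14.1 CPM (adjusted p = 0.226). Of the markers that define the cell type, Emr1, Timd4 and Mertk were at 0 in all MUL-HSC libraries. In restricted libraries these 3 markers averaged 1.81, 1.19 and 4.41 CPM. Each was at 0 in at least 1 restricted library, and their highest values were 12.2, 10.7 and 18.2 CPM. The means of Emr1 and Timd4 therefore rest largely on 1 library each. Csf1r was at 0 in all MUL-HSC libraries and at 0.035 CPM or less in restricted ones. Emr1, Timd4 and Csf1r did not pass the filter on low counts and were not tested. In the other direction, Cd163 averaged 5.96 CPM in restricted and 10.6 CPM in MUL-HSC libraries, and Spic 12.6 and 14.4 CPM. The part of macrophage markers in the interferon, MHC class II or Apoe values was not tested. Summed over their lists, neutrophil markers stayed at or below 18.0 CPM and erythroblast markers at or below 17.2 CPM in all libraries. T and NK cell markers, mainly Nkg7 and Lck, summed to 23.8 to 167 CPM in restricted and 153 to 219 CPM in MUL-HSC libraries. Endothelial markers, a list that holds Vwf, summed to 379 to 577 CPM in restricted and 355 to 559.6 CPM in MUL-HSC libraries, while their mean log2(CPM + 1) over 6 tested members, Vwf among them, did not overlap (4.76 to 5.70 against 4.51 to 4.68). None of the other 5 was called: Pecam1 averaged 32.1 and 26.2 CPM, Tie1 27.6 and 23.9 CPM, Egfl7 255 and 269 CPM, Kdr 4.05 and 0.46 CPM, and Emcn 42.8 and 108 CPM. The part of endothelial markers in the Vwf values was not tested.

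Within the retinoic acid pathway, Rdh10 was the called gene. Of 18 tested members of 33, 13 were positive with a median of 0.61, and 4 were higher at an unadjusted p under 0.05: Rdh10, Rdh5, Tgm2 and Cyp26b1. Over all genes tested, 4.07% were higher at that threshold. Rdh5, another retinol dehydrogenase, had at most 0.047 CPM in MUL-HSC and 0 to 18.8 CPM in restricted libraries (adjusted p = 0.423). Cyp26b1, which degrades retinoic acid, averaged 16.7 and 2.88 CPM (0.622), and Aldh1a1, which makes it, 218 and 141 CPM (0.834). Without MUL-HSC 1 and 2 the median was 0.19, with 13 of 18 positive and none called.

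Among megakaryocyte and platelet genes Vwf was called and no other. This list shares 7 genes with the aged-HSC list and 5 with the HSC identity list. Of 42 tested, 28 were positive and 14 negative, with a median of 0.28, and at an unadjusted p under 0.05 there were 6 higher and 3 lower. The median without MUL-HSC 1 and 2 was 0.43, with 26 of 43 positive. Sdpr, a caveolar protein, averaged 145 and 35.3 CPM (adjusted p = 0.423) and Gp9, a subunit of the platelet receptor for von Willebrand factor, 72.5 and 41.8 CPM (0.618). In contrast Pf4, platelet factor 4, averaged 53.9 and 98.5 CPM (0.724), and Lat, a signalling adaptor, lay lower in every restricted library (21.6 to 124 CPM) than in every MUL-HSC library (137 to 204 CPM; adjusted p = 0.423). Erythroid genes were positive in 14 of 21 (median 0.40), granulocyte and monocyte genes in 9 of 20 (median -0.18) and lymphoid priming genes in 11 of 20 (median 0.096, with a mean of -0.47 of the other sign); none of these was called. At an unadjusted p under 0.05, 4 erythroid genes were higher and 0 lower, and 0 granulocyte and monocyte genes higher and 1 lower. Among lymphoid priming genes 1 was higher and 4 lower, where 4.07% of all genes tested were higher and 2.21% lower. The lymphoid priming list shares 5 genes with the multipotent progenitor list, so the 2 lists are not separate observations. The mean log2(CPM + 1) of the lymphoid priming list ran from 4.19 to 4.87 in restricted and from 4.505 to 5.01 in MUL-HSC libraries. Without MUL-HSC 1 and 2 the granulocyte and monocyte median was 0.10.

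The cell cycle lists depended on which multilineage libraries were used. S phase genes were negative in 35 of 40 (median -0.50) and mitosis genes in 27 of 40 (median -0.21), with none called in either list. Without MUL-HSC 1 and 2 the S phase median was -0.044, with 18 of 40 positive, and the mitosis median turned to 0.39, with 33 of 40 positive. The spread within a class was wide: the mean log2(CPM + 1) of mitosis genes ran from 1.43 to 5.70 in restricted and from 2.27 to 5.10 in MUL-HSC libraries. Ccnb2, a mitotic cyclin, ran from 10.3 to 329 CPM in restricted and from 84.7 to 325 CPM in MUL-HSC libraries, and Mcm6, a subunit of the replicative helicase, from 89.5 to 527 and from 215 to 523 CPM. Hox cluster genes were positive in 12 of 15 (median 0.62), but their median was -0.0045 without MUL-HSC 1 and 2, and the highest-expressed of them, Hoxa9 and Hoxa10, had values of -0.47 and -0.44. Oxidative phosphorylation genes had small values with 66 of 88 negative (median -0.13), and cytosolic ribosomal protein genes lay near 0 (median 0.019).

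**Figure D5:**
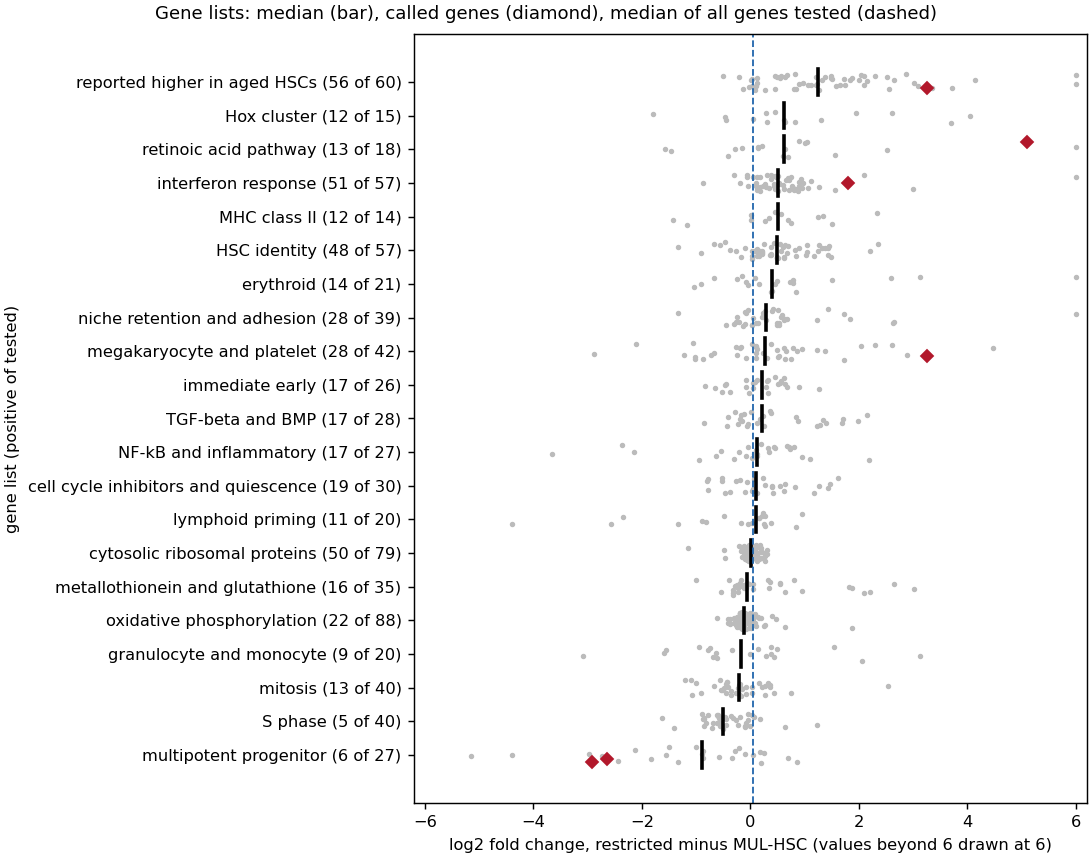
Log2 fold change, restricted minus MUL-HSC (horizontal), of the tested members of each gene list (vertical; points, genes; bar, list median; diamonds, called genes; dashed line, median of all genes tested). The aged-HSC list lies furthest to the right among the lists of blood and stem cell genes, at a median of 1.25, and the multipotent progenitor list furthest to the left, at -0.88.

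Pooling PLT-HSC with PEM-HSC assumes that they resemble each other. Between PLT-HSC and PEM-HSC, edgeR called 0 of 12131 genes (0%), with 426 genes (3.51%) at an unadjusted p under 0.05; DESeq2 called 68 and limma voom 0. The comparisons of PLT-HSC and of PEM-HSC with MUL-HSC share the MUL-HSC libraries and are given side by side only. For Vwf the log2 fold changes were 3.73 in PLT-HSC and 2.94 in PEM-HSC, for Rdh10 5.83 and 4.51, for Phf11d 2.13 and 1.59, for Cd34 -3.11 and -2.83, and for Ctla2a -3.19 and -2.43. The difference between PLT-HSC and PEM-HSC was 0.79 for Vwf (SE 0.39), 1.31 for Rdh10 (SE 0.65), 0.53 for Phf11d (SE 0.29), -0.29 for Cd34 (SE 0.56) and -0.76 for Ctla2a (SE 0.55), and none passed the test (adjusted p = 0.9998 each, edgeR). With 3 PLT-HSC libraries, this does not show that the groups are alike. Serpinb1a, lower in PLT-HSC (29.8 ± 19.6 CPM) than in PEM-HSC (86.0 ± 51.4 CPM), and Ctnnal1, higher in PLT-HSC (80.6 ± 16.7 CPM) than in PEM-HSC (32.9 ± 12.7 CPM), had unadjusted p of 0.0117 and 0.00902, and their adjusted p was also 0.9998. Lat, which averaged 46.2 ± 24.0 CPM (SD) over the PLT-HSC and 102 ± 19.4 CPM over the PEM-HSC libraries, had the smallest unadjusted p among the genes named here (0.00237) and did not pass either (adjusted p = 0.9998).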

How the data were processed

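RNA was measured in 13 libraries of 100 sorted mouse HSCs. The submitters' processing notes name STAR, featureCounts, FastQC, Trimmomatic and build mm9, while their versions, settings, annotation and strand mode are not given in the sources used here. Values in the deposited table are raw counts per gene symbol that the authors had not normalized. Without molecular identifiers, counts include PCR copies, and bounds from a floor of 3 counts cover counting error only. No strand mode is stated, so overlapping genes and antisense partners cannot be separated.

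The table holds 24015 gene symbols and 92 ERCC rows, which stayed out of library sizes and tests. Groups came from the labels. Counts were filtered with filterByExpr (12131 genes kept), scaled by TMM and fitted with edgeR 4.0.16 (R 4.3.3) as a quasi-likelihood model with robust estimation and 1 term, restricted against multilineage. PLT-HSC against PEM-HSC came from a fit with a term per group. SE is the absolute log2 fold change divided by the square root of F. Benjamini-Hochberg adjustment ran over all genes tested, with a threshold of 0.05. The common biological coefficient of variation was 0.942 and that of the median gene 0.593. Every pair of libraries in a group differed by more than sampling noise. The script was tested on simulated data. Alternatives, run with DESeq2 1.42.0 and limma 3.58.1 among others, are described in the closing section.

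Which libraries are restricted follows the labels alone; the decision to pool them and the gene lists were made with earlier results of these data known. The rule for named genes took, per direction, up to 15 called genes by p, filled to 8 by p where fewer than 8 were called and without symbols that are gene models only (0 of 835 gene models were called). It added up to 6 list members by p for 5 lists, the called or otherwise 2 highest-expressed members of the other lists, 11 sort and reporter genes, and genes read in every library of 1 class and none of the other. Other genes were named after their values were seen: Oas2, Ramp2, Rsad2, Ifitm3, the macrophage and endothelial markers other than Cd68, Hmox1 and Vwf, Hfe, Clec7a, and those of the closing section outside the rule. Promoter sequences are from RefSeq. Some genes that the rule selects are not reported here.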

Additional observations from a re-analysis of the deposited data

Results flagged for a closer look

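Across 56 sets of 4 to 9 libraries tested for a single value far from the rest, 3 were picked out. Chance alone picks out about 1 in 20 such sets where values are normally distributed. The CPM were tested without a log scale, so that rate may not hold here. Gpr4 in MUL-HSC, at 0 throughout, was among the sets and could not be picked out. Ctla2a stood at 3898 CPM in MUL-HSC 2, the gap to the nearest other multilineage library being 0.883 of the range of the group (limit 0.829 for 4 libraries). Without MUL-HSC 2 its log2 fold change was -1.98 (adjusted p = 0.191, edgeR).

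The other flagged values both come from PEM-HSC 4, the restricted library that also had the highest Cd34 and Ctla2a. Serpinb1a reached 187 CPM there (gap 0.567 of the range, limit 0.493 for 9 libraries), and Flt3 reached 5.16 CPM (gap 0.818). Without PEM-HSC 4, Serpinb1a passed the threshold at a log2 fold change of -2.49 (adjusted p = 0.0465, edgeR).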

How the results depend on the processing

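The count of called genes moved with nearly every choice. In the order higher, lower (main result 4 and 2), it was 3 and 1 with RLE size factors, 3 and 1 with library totals only, 5 and 1 with no filter on low counts, 4 and 1 with at least 10 CPM in at least 4 libraries, 131 and 15 with DESeq2, 0 and 3 with limma voom (Cd34, Nov, Lpxn), 3 and 2 without robust estimation, 3 and 4 with PLT-HSC and PEM-HSC weighted equally (adding Otos and Serpinb1a), 1 and 1 with detected genes as a covariate (Vwf, Cd34), and 2 and 0 without both MUL-HSC replicates 1 and 2. Leaving out 1 library at a time gave 1 to 19 higher genes and 0 to 3 lower ones, with 22 in all without MUL-HSC 3 and 1 without PEM-HSC 5 or PLT-HSC 1. DESeq2 kept all 6 genes. For PLT-HSC against PEM-HSC, DESeq2 called 68, leaving out 1 library gave 0 to 2 (Zfp456 without PLT-HSC 1; Tcf19 and Kcnq1ot1 without PLT-HSC 3), and the other fits gave 0. Of the 24 alternatives, 22 called Vwf, 18 Cd34, 13 Phf11d, 12 Rdh10, 6 Ctla2a and 5 Gpr4. Genes named here that the report does not name were chosen after their values were seen.

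With the replicate number of the labels as a replicate block, 1 gene was called higher (Vwf, log2 fold change 3.37, adjusted p = 0.0292) and 0 lower, with 627 genes at an unadjusted p under 0.05. Deviations of same-numbered libraries from their group means correlated at -0.138 to 0.0505, with 0 of 10 pairs over 0.1. These correlations gave no sign of pairing. With so few libraries per group they cannot settle whether same-numbered libraries were made together. Depth limits genes of low level: a floor of 3 counts is 0.183 CPM in the shallowest library.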
